A study of Mus musculus with 35 samples.

Results

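Cholesterol is made from acetyl-CoA through mevalonate, isoprenoid units, squalene and a series of sterols. The transcription factor SREBP2, encoded by Srebf2, drives the genes of this route. When the endoplasmic reticulum holds enough sterol, INSIG proteins retain SREBP2 there together with its escort SCAP, and when sterol runs low SREBP2 is cut by proteases in the Golgi and its freed domain enters the nucleus, where it also raises genes for uptake of lipoproteins. Embryos need the route, and the last steps supply the sterol that modifies Hedgehog proteins.

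The 8 genes described here were taken by symbol, by a rule that uses no measured value. Earlier results of these data were nevertheless known when the genes were chosen. They are Hmgcs1, Idi1, Fdft1, Sqle, Lss, Cyp51, Dhcr7 and Srebf2, 8 of the 54446 genes in a table of RNA levels for 27 libraries. Of these, 7 encode enzymes and 1, Srebf2, encodes the regulator. None of the 8 is an uptake gene, so uptake is given below from a separate list. All 8 passed the filter on low values in the embryo and in the culture libraries.

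The study derived 3D epithelial spheroids of epiblast stem cells (EpiSCs) from mouse pluripotent cells and compared them with the embryo. The embryo samples, labelled as wild-type of strain CD-1, came from 5 stages, embryonic days E3.5 to E7.5 at intervals of 1 day, with 3 libraries each and no treatment. At E3.5 the inner cell mass (ICM) was cut out by laser. At E4.5 GFP-negative cells were picked after immunosurgery of Pdgfra:H2B-GFP embryos, in which the reporter marks primitive endoderm, so the E4.5 material carried a reporter that the label does not name. From E5.5 onward the epiblast was dissected by hand from the extra-embryonic tissues. Material from several embryos was pooled for each library at every stage, with fewer embryos from E5.5 onward than at E3.5 and E4.5. The wild-type culture samples were 4 groups with 3 libraries each. EpiLCs (epiblast-like cells) were embryonic stem cells (ESCs) after 48 h in FGF2 and Activin-A, and 2D EpiSCs were made by conversion of ESCs with the same factors and grown on fibronectin. The 3D EpiSCs were grown in Matrigel with FGF2, Activin-A, the Wnt pathway inhibitor XAV and the Bmp inhibitor Noggin, either from ESCs (ESC-derived) or from E5.5 epiblasts (embryo-derived). Dimension and medium therefore change together between 3D and 2D EpiSCs, and cell of origin and genetic background change together between both kinds of 3D EpiSCs, so their parts cannot be told apart.

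Levels are in TPM, abundances divided by transcript length and scaled to a sum of 1000000 in every library. The file keeps no read counts, so sequencing depth is unknown, and genes above 0 TPM numbered 22215 to 24438 in culture libraries and 20324 to 26751 in embryo libraries. Embryo libraries were made from total RNA after ribosomal depletion and culture libraries from poly-A RNA, so no test was run between them. The summed TPM of 6 core pluripotency and epiblast genes was 1915 to 2774 in culture, 488 to 1107 from E3.5 to E6.5 and 355 to 380 at E7.5. Markers of primitive and visceral endoderm were present in the embryo libraries. Their 8 genes summed to 385 to 391 TPM at E3.5, 144 to 170 at E4.5, 678 to 734 at E5.5, 1104 to 1137 at E6.5 and 1116 to 1153 at E7.5, against 0.675 to 63.4 in culture. Of this list, Afp was at 0 in every E3.5, E4.5, embryo-derived 3D EpiSC and 2D EpiSC library, and Ttr in every E3.5, 3D EpiSC and EpiLC library.

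The Hmgcs1 promoter is shown because it was the only member promoter examined that held the exact letters TCACNCCAC. These letters stood for the sterol regulatory element, the sequence that SREBP2 binds. Other spellings of the element were not searched, so the other windows are not shown to lack it. RefSeq promoters of build GRCm38.p6, covering 250 bases before to 50 bases after each start, were matched for 6 of the 8 genes, in 8 windows. Fdft1 and Sqle had no entry. The letters TCACNCCAC, searched on both strands, were in 1 of these windows and in 1.24% of the 32851 promoter windows of the table. The Hmgcs1 window lies at chr13:119690101-119690400 on the plus strand, and in it capitals mark TCACCCCAC, which begins 137 bases before the start, and the letters CCAAT on either strand (as ATTGG), the CCAAT box that NF-Y binds. The windows of Idi1 (chr13:8885356-8885655, plus strand) and Cyp51 (chr5:4104648-4104947, minus strand) are set beside it because these genes had the largest embryo changes among the genes with a window, a choice made after their values were seen, and their capitals mark CCAAT boxes.
Hmgcs1: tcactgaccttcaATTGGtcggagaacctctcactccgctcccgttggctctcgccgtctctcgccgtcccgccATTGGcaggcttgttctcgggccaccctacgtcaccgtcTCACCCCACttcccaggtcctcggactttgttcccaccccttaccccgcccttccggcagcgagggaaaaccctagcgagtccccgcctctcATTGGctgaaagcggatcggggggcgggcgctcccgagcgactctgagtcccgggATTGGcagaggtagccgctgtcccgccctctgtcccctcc
Idi1: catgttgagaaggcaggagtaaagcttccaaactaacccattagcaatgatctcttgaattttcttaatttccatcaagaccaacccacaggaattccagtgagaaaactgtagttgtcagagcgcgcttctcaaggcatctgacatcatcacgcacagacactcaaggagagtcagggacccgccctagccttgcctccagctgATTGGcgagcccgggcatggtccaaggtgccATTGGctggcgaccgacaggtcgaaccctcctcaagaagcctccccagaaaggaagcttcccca
Cyp51: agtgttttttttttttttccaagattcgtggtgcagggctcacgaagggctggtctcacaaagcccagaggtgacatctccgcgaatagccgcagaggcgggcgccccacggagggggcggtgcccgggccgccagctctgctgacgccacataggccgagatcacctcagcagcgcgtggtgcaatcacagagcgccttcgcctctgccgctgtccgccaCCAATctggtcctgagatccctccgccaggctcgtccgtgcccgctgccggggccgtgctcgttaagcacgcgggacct
The letters CCAAT were in 6 of the 8 member windows, with at least 1 window for each of the 6 genes, and in 37.4% of all windows. The GC box letters GGGCGG were in 7 of the 8 member windows and in 35.7% of all windows. No capital run in the Hmgcs1 window overlapped another. These matches describe letters in a window and do not show binding.

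In the embryo, the 8 member genes rose together from E3.5 to E4.5, and 6 of 8 fell again by E5.5. All 8 genes were higher at E4.5 than at E3.5, by 1.33-fold (Fdft1) to 2.72-fold (Cyp51). Their summed TPM was 178, 188 and 184 in the E3.5 libraries and 322, 318 and 344 in the E4.5 libraries. It then stood at 229 to 256 at E5.5, 189 to 209 at E6.5 and 170 to 173 at E7.5. In bulk samples, fewer cells with a transcript and less of it per cell cannot be told apart.

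**Figure D1:**
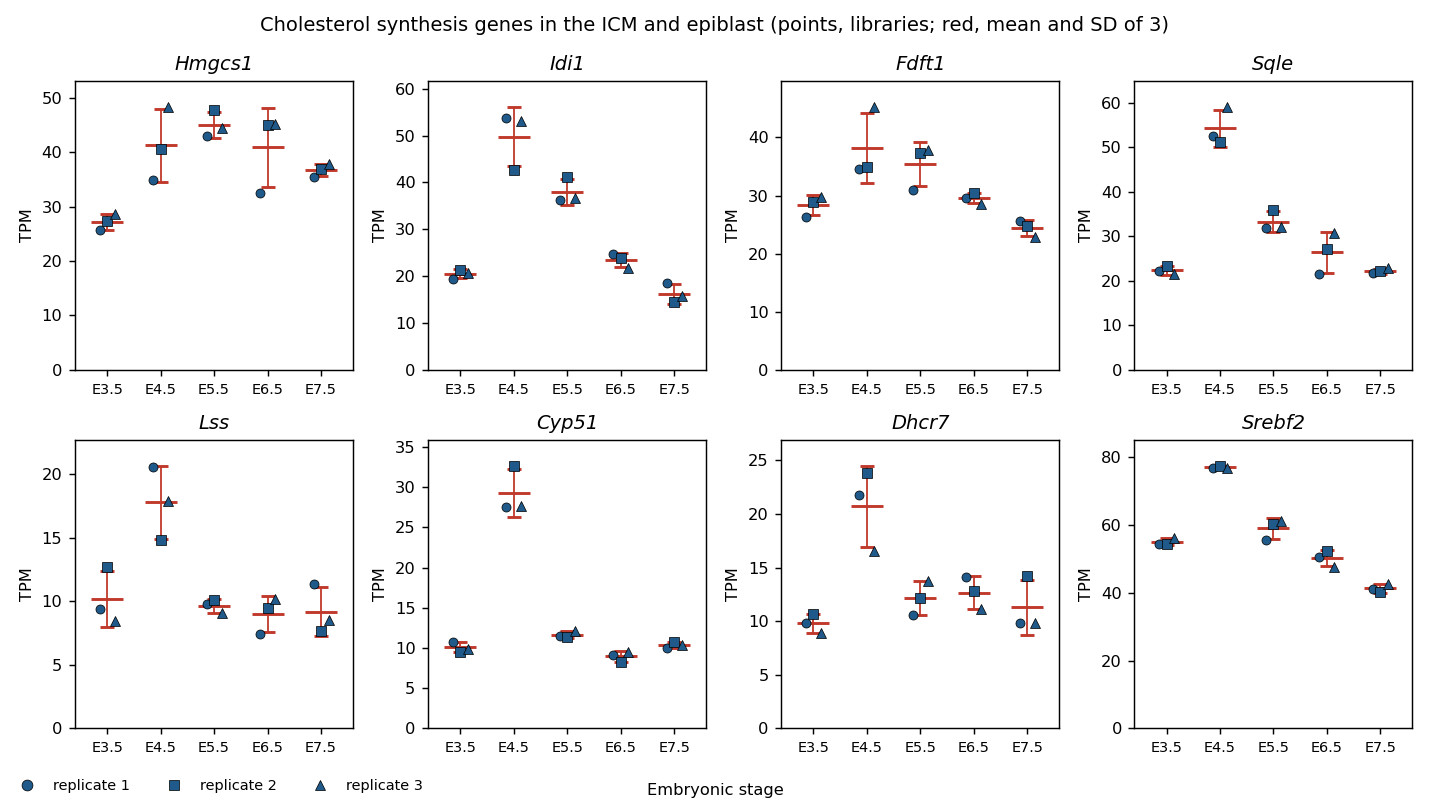
TPM of each gene (y axes, linear from 0) by embryonic stage (x axes); points are libraries, shaped by replicate number, and red bars are the mean and SD of 3. The E4.5 libraries lie above the E3.5 libraries in all 8 panels, and Cyp51 is back at 11.4 to 12.1 TPM by E5.5.

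Hmgcs1, which makes the HMG-CoA from which mevalonate is formed, measured 25.7, 27.4 and 28.6 TPM at E3.5 and 35.0, 40.6 and 48.3 TPM at E4.5. The groups did not overlap, and the log2 fold change was 0.57 (SE 0.13, adjusted p = 0.0024 by limma). Its level was 42.9 to 47.7 TPM at E5.5, 32.4 to 45.2 at E6.5 and 35.5 to 37.8 at E7.5, all above every E3.5 library, and no later step passed the test.

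Idi1, which interconverts the isoprenoid units IPP and DMAPP, measured 19.4, 21.4 and 20.8 TPM at E3.5 and 53.7, 42.6 and 53.1 TPM at E4.5. This was a log2 fold change of 1.23 (SE 0.11, adjusted p = 6.49e-07). Idi1 then declined at each later stage. It was 36.3 to 41.1 TPM at E5.5, 21.8 to 24.8 at E6.5 and 14.5 to 18.6 at E7.5, and the log2 fold changes were -0.38 (adjusted p = 0.0098), -0.67 (adjusted p = 0.0024) and -0.51 (adjusted p = 0.0018), each with SE 0.11. It was the only one of the 8 genes that passed at all 4 steps between adjacent stages.

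Fdft1 and Sqle act in sequence at squalene. Fdft1, squalene synthase, commits farnesyl units to sterols, and its libraries read 26.4, 29.0 and 29.7 TPM at E3.5 and 34.6, 34.8 and 45.2 at E4.5. The log2 fold change was 0.41 (SE 0.11, adjusted p = 0.0071), the smallest rise of the 8. At E5.5 Fdft1 was 31.0 to 37.9 TPM, which overlapped E4.5 (log2 fold change -0.10, adjusted p = 0.45). Sqle, squalene epoxidase, is a rate-limiting step after mevalonate. It went from 22.2, 23.4 and 21.4 TPM to 52.6, 51.3 and 59.0 TPM between E3.5 and E4.5, a log2 fold change of 1.24 (SE 0.11, adjusted p = 6.26e-07). At E5.5 it was 31.7 to 36.0 TPM, lower by 0.69 on the log2 scale (adjusted p = 0.00012) but still above every E3.5 library. By E7.5, at 21.7 to 22.8 TPM, it lay in the E3.5 range.

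Among the sterol steps in the member set, Cyp51 had the largest log2 fold changes. It removes a methyl group from lanosterol. Its libraries read 10.8, 9.54 and 9.92 TPM at E3.5, 27.5, 32.7 and 27.6 at E4.5 and 11.5, 11.4 and 12.1 at E5.5. The E4.5 libraries stood apart on both sides. The log2 fold changes were 1.45 (SE 0.09, adjusted p = 1.18e-08) and -1.25 (SE 0.09, adjusted p = 3.44e-08). Lss, which closes the sterol rings, measured 9.35, 12.7 and 8.48 TPM at E3.5, 20.6, 14.8 and 17.9 at E4.5 and 9.79, 10.1 and 9.04 at E5.5. Its changes were 0.76 (SE 0.17, adjusted p = 0.0020) and -0.81 (SE 0.17, adjusted p = 0.00097). Dhcr7, a reductase of the last steps, measured 9.85, 10.6 and 8.89 TPM at E3.5, 21.8, 23.8 and 16.5 at E4.5 and 10.6, 12.1 and 13.7 at E5.5, with changes of 1.00 (SE 0.16, adjusted p = 0.00016) and -0.72 (SE 0.16, adjusted p = 0.0017). For these enzymes the E5.5 and E3.5 libraries overlapped except for Cyp51, whose E5.5 libraries were all above E3.5.

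Srebf2 was the highest of the 8 genes per length at every stage, with means of 41.3 to 77.0 TPM. It measured 54.5, 54.5 and 56.3 TPM at E3.5 and 76.8, 77.5 and 76.7 TPM at E4.5, with a log2 fold change of 0.48 (SE 0.07, adjusted p = 6.82e-05). It was 55.6 to 61.1 TPM at E5.5 (log2 fold change -0.38, adjusted p = 0.00036), 47.7 to 52.3 at E6.5 and 40.3 to 42.7 at E7.5. The E6.5 to E7.5 step passed (log2 fold change -0.27, adjusted p = 0.0053), and all E7.5 libraries were below all E3.5 libraries.

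Read against the other genes, all 8 members were higher at E4.5 where 21.0% of the 11880 genes tested were higher and 33.8% lower. The median log2 fold change was 0.88 for the members and -0.10 for all genes. With a log2 fold change above 1 as well, 3 of 8 passed (Cyp51, Sqle and Idi1), against 5.88% of genes, and the libraries of the compared stages did not overlap in 8 of 8 members against 22.9% of genes higher at E4.5. At E5.5, 6 of 8 were lower than at E4.5 and 0 higher, where 22.8% of genes were lower and 38.9% higher. For these 6 all libraries lay below all E4.5 libraries, where 23.8% of genes did so, and Cyp51 alone fell by more than 1 on the log2 scale, where 9.47% of genes did. The median was -0.53 for the members and 0.16 for all genes. After rescaling the TPM by median-of-ratios factors, 8 were higher at E4.5, 4 of them by more than 1 on the log2 scale with Dhcr7 added, and 6 were lower at E5.5, while over all genes the E5.5 step went from 4619 higher and 2705 lower to 3782 higher and 3463 lower.

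**Figure D2:**
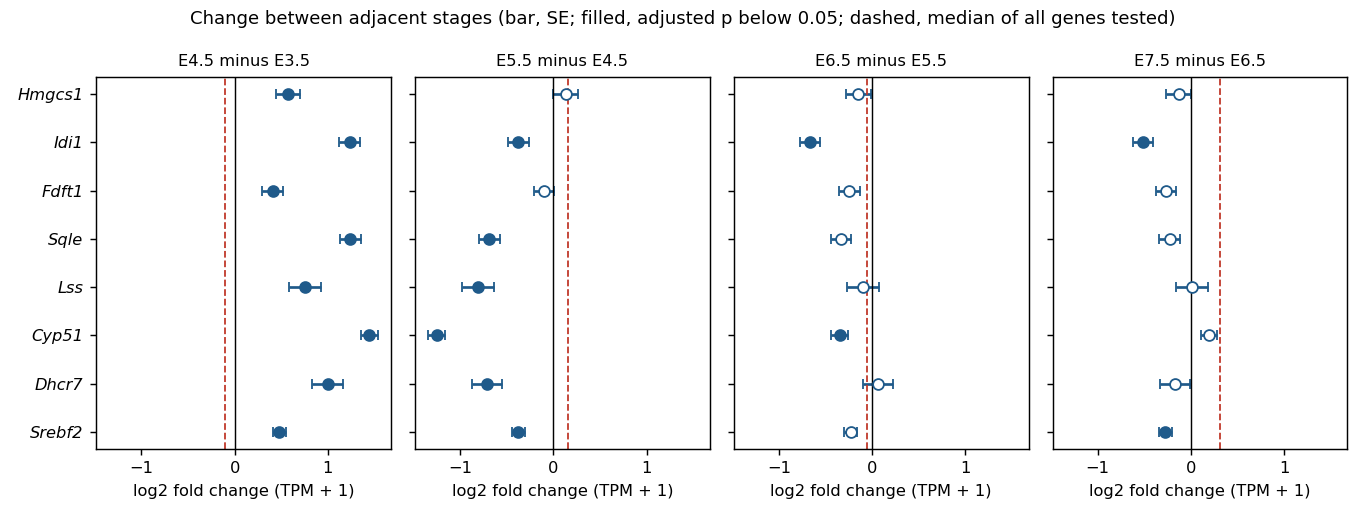
Log2 fold change of TPM + 1 (x axes) for each gene (y axis) between adjacent stages, with SE bars from the limma fit of 15 libraries; filled points have an adjusted p below 0.05 and the dashed red line is the median of all genes tested. All 8 points lie above 0 at E4.5 minus E3.5, and 6 filled points lie below 0 at E5.5 minus E4.5.

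The later steps were smaller. From E5.5 to E6.5, 2 of 8 genes were lower, Idi1 and Cyp51 (8.94 against 11.7 TPM, log2 fold change -0.35, adjusted p = 0.024), where 6.95% of genes were lower and 3.89% higher. Cyp51 did not pass without any 1 of the 3 E5.5 libraries, which left 1 gene lower, nor without E6.5 replicate 2, when Srebf2 passed instead (adjusted p = 0.050). Over all genes 462 higher and 826 lower became 717 and 531 after rescaling. From E6.5 to E7.5, 2 of 8 were lower, Idi1 and Srebf2, where 6.87% of genes were lower and 46.5% higher, with a member median of -0.20. The median of all genes was 0.31 there, with 5526 higher and 816 lower, and rescaling removed this shift (median 0.01, with 2522 higher and 2243 lower). Relative to that shift 6 members were lower, namely Hmgcs1, Idi1, Fdft1, Sqle, Dhcr7 and Srebf2, and the sign of Cyp51 and Lss turned negative without passing.

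Tissue and library features moved with the stage. The 8 endoderm markers summed to 385 to 391 TPM at E3.5, 144 to 170 at E4.5 and 678 to 734 at E5.5. From E3.5 to E4.5, medians fell for Gata6 (119 to 8.84), Sox17 (83.3 to 12.7), Gata4 (92.2 to 20), Apoa1 (15.8 to 0.851) and Amn (30 to 25.5). Cubn rose from 48.7 to 92 TPM, Ttr went from 0 to 0.212 and Afp stayed at 0. From E4.5 to E5.5, Apoa1, an apolipoprotein of the visceral endoderm, went from a median of 0.851 to 355 TPM. Medians also rose for Ttr (0.212 to 85), Afp (0 to 83.1), Amn (25.5 to 49.7) and Gata4 (20 to 30.9). Sox17 was at 12.7 and then 13.6 TPM, and Gata6 (8.84 to 7.6) and Cubn (92 to 87.7) were lower. The 4 trophoblast markers summed to 410 to 431 TPM at E3.5, 232 to 246 at E4.5 and 7.96 to 8.6 at E5.5. They did not move alike from E3.5 to E4.5. Median Cdx2 went from 158 to 22.6 TPM and Gata3 from 212 to 85.1, while Elf5 rose from 48.1 to 126. Esx1 was at 0 and then 0.549 TPM. Mitochondrial transcripts took 13.8% to 14.4% of TPM at E3.5, 17.2% to 18.6% at E4.5 and 9.84% to 10.4% at E5.5. Their part in the member changes was not tested. The isolation method changed between E3.5 and E4.5 and again at E5.5, so method and stage cannot be told apart. At E5.5, RNA fragmentation and the number of embryos pooled also changed.

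The remaining enzymes of the route, 14 listed genes of which 12 are autosomal and could be tested, moved in both directions. At E4.5, 8 of the 12 were higher than at E3.5 and 2 lower (1 after rescaling), with a median of 0.73. Over all genes 21.0% were higher at that step and 33.8% lower. Msmo1, a methyl sterol oxidase that acts later in the route than Cyp51, went from 22.3 to 54.0 TPM (log2 fold change 1.24, adjusted p = 3.52e-05). Tm7sf2, a sterol C14 reductase, went from 11.9 to 5.15 TPM (log2 fold change -1.22, adjusted p = 0.010). At E5.5, 5 of the 12 were lower than at E4.5 and 2 higher, where 22.8% of all genes were lower and 38.9% higher. Msmo1 fell to 14.2 TPM (log2 fold change -1.84, adjusted p = 5.02e-07) and Tm7sf2 rose to 13.7 TPM. Fdps, which supplies farnesyl units to Fdft1, rose from 88.7 to 196 TPM at E4.5 and was 208 TPM at E5.5 (adjusted p = 0.47). The X-linked Nsdhl and Ebp stayed outside the fit. Nsdhl, which acts after Msmo1, was at 11.9 to 14.3 TPM at E3.5, 20.5 to 24.6 at E4.5 and 12.3 to 13.4 at E5.5.

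Among 5 tested regulators of SREBP processing, Insig1 and Srebf1 passed as higher at E4.5 and as lower at E5.5. Insig1 is an SREBP target as well as a brake on it. It went from 24.2 to 48.1 and back to 15.6 TPM, with log2 fold changes of 0.96 (adjusted p = 1.91e-07) and -1.57 (adjusted p = 9.29e-10). Insig2 moved the other way, at 5.63, 3.88 and 6.97 TPM, and its E4.5 drop (adjusted p = 0.026) did not pass after rescaling (adjusted p = 0.064). Scap, the escort, was 17.5, 14.3 and 13.7 TPM and passed at neither step.

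For uptake and handling, 3 of 8 genes were higher at E4.5 and 1 lower, or 3 and 0 after rescaling, where 21.0% of all genes were higher and 33.8% lower. Lrp8, a lipoprotein receptor of the LDL receptor family, went from 3.32 to 13.6 TPM (log2 fold change 1.76, adjusted p = 3.00e-09), and Scarb1, the HDL receptor, from 17.9 to 42.5 TPM (log2 fold change 1.20, adjusted p = 1.65e-05). At E5.5, 5 were higher and 3 lower than at E4.5, or 3 and 3 after rescaling, where 38.9% of all genes were higher and 22.8% lower. Lipa, the lysosomal lipase that frees cholesterol from lipoproteins, rose from 0.0249 to 4.94 TPM (log2 fold change 2.53, adjusted p = 8.15e-11), while Scarb1 fell to 31.4 TPM (log2 fold change -0.43, adjusted p = 0.025). Of 4 tested genes for efflux, esters and oxysterols, 1 was higher and 1 lower at E4.5. Abca1, the cholesterol exporter, went from 3.65 to 0.626 TPM (log2 fold change -1.51, adjusted p = 4.53e-06). Of 7 fatty acid genes, 5 were higher and 2 lower at E4.5, led by Scd2, a desaturase, at a log2 fold change of 2.07 and Elovl6, an elongase, at -1.68.

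From E5.5 to E6.5 fewer genes of each list passed than at the earlier steps, where 6.95% of all genes were lower and 3.89% higher. Of the 7 fatty acid genes 3 were lower and 0 higher, or 1 lower after rescaling. Of the 8 uptake and handling genes 2 were higher and 1 lower. Of the 12 other enzymes 1 was lower, Fdps, from 208 to 120 TPM (log2 fold change -0.78, adjusted p = 0.00022), and Insig1 went from 15.6 TPM to a lower level (log2 fold change -0.47, adjusted p = 0.0021). Both passed again as lower at E7.5, Fdps at 73.0 TPM (-0.72, adjusted p = 4.14e-05) and Insig1 at 7.93 TPM (-0.42, adjusted p = 0.00051). At that step, 3 of the 12 enzymes were higher and 1 lower, or 2 and 3 after rescaling, where 46.5% of all genes were higher and 6.87% lower. Scap rose from 15.3 to 27.2 TPM (0.80, adjusted p = 6.47e-05). For uptake, Vldlr, a lipoprotein receptor, rose from 2.74 to 8.26 TPM (1.34, adjusted p = 3.75e-05) and Lrp8 from 11.9 to 22.7 TPM (0.88, adjusted p = 5.34e-06), while Abca1 rose from 1.09 to 3.65 TPM (1.19, adjusted p = 6.13e-05).

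**Figure D3:**
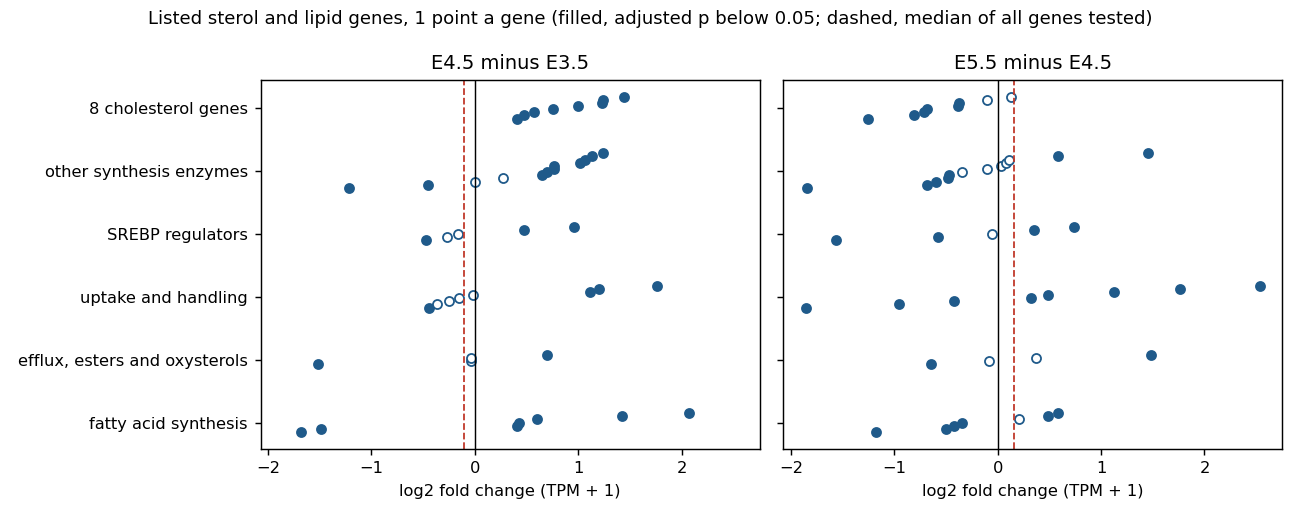
Log2 fold change of TPM + 1 (x axes) for each tested gene of 6 lists (rows), 1 point a gene, at E4.5 minus E3.5 and at E5.5 minus E4.5; filled points have an adjusted p below 0.05 and the dashed red line is the median of all genes tested. In the 8-gene row all points lie to the right of 0 at the first step, and the other enzymes hold 8 filled points to the right and 2 to the left.

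Culture and embryo levels are set side by side only as values. Summed over the 8, culture libraries held 1148 to 2351 TPM and embryo libraries 170 to 344 TPM. Kit and source cannot be told apart in this contrast, and no test was made. Hmgcs1 took a mean of 46.1% of the summed TPM in 2D EpiSCs, 36.2% in EpiLCs and 32.6% in embryo-derived 3D EpiSCs, against 14.8% at E3.5, 12.5% at E4.5 and 21.4% at E7.5, while Srebf2 took 9.33% in 2D EpiSCs and 30.0% at E3.5.

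Before the culture comparisons, the libraries were set against each other. The median absolute log2 difference over genes was 0.06 in ESC-derived 3D EpiSCs between libraries 1 and 2, 0.06 in embryo-derived 3D EpiSCs between libraries 2 and 3 and 0.06 in 2D EpiSCs between libraries 1 and 2, whereas all other pairs of the same group lay at 0.13 to 0.27. Without counts, it cannot be tested whether the close pairs differ by more than sampling noise, so results are given both with these pairs as separate libraries and with each averaged as 1. Library 3 of the ESC-derived 3D EpiSCs stood apart. It was the lowest of its group for 7 of 8 genes, at a median of 0.585 times the mean of the others. Its mitochondrial share was 5.42% against 3.78% and 3.88%, and its endoderm markers summed to 13.5 TPM against 0.723 and 0.675. Library 1 of the embryo-derived 3D EpiSCs was the highest of its group for 7 of 8 genes, at a median of 1.44 times the mean of the others. Its mitochondrial share was 6.52% against 4.69% and 4.85%, and its nascent mesoderm markers summed to 194 TPM against 96.9 and 97.0. Library 3 of the 2D EpiSCs was the highest of its group for 6 of 8 genes, at a median of 1.11 and at most 1.51 times the mean of the others. Its mitochondrial share was 3.57% against 6.80% and 6.71%, its endoderm markers summed to 46.0 TPM against 63.4 and 62.2, and its trophoblast markers to 3.76 TPM against 11.5 and 10.7. The part of these features in the results was not tested.

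**Figure D4:**
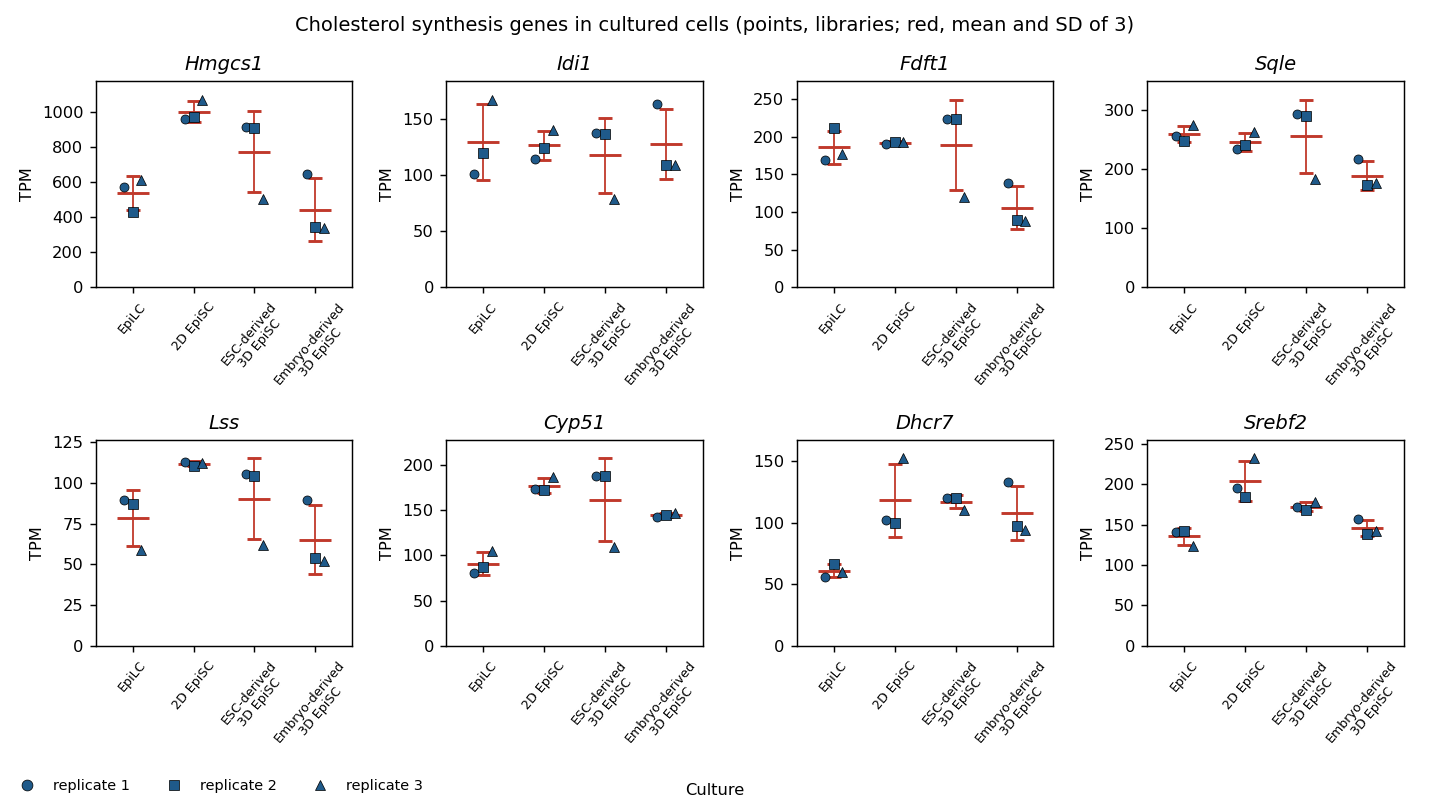
TPM of each gene (y axes, linear from 0) by culture (x axes); points are libraries, shaped by replicate number, and red bars are the mean and SD of 3. Replicate 3 of the ESC-derived 3D EpiSCs (triangle) lies below its group for 7 genes, and replicate 1 of the embryo-derived 3D EpiSCs (circle) lies above its group for 7.

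Between 2D EpiSCs and EpiLCs, which asks how the primed state differs from the formative state, 4 of 8 genes were higher in 2D EpiSCs and none lower, where 39.9% of the 11541 genes tested were higher and 18.7% lower. The member median was 0.56 and that of all genes 0.18. Cyp51 measured 173, 172 and 186 TPM in 2D EpiSCs and 80.4, 86.7 and 105 in EpiLCs (log2 fold change 0.97, SE 0.18, adjusted p = 0.00083). Dhcr7 measured 102, 99.7 and 152 TPM against 56.1, 66.6 and 59.9 (0.92, SE 0.17, adjusted p = 0.00073). Neither gene overlapped between these groups. Hmgcs1 measured 965, 976 and 1072 TPM against 571, 428 and 614 (0.92, SE 0.27, adjusted p = 0.013), and Srebf2 196, 184 and 232 TPM against 141, 142 and 123 (0.58, SE 0.11, adjusted p = 0.00060). The Hmgcs1 call was lost without EpiLC replicate 2 (adjusted p = 0.059) and after rescaling (adjusted p = 0.057), which left 3 genes higher and turned 4601 higher and 2161 lower over all genes into 3405 and 3513. Lss was 110 to 113 TPM in 2D EpiSCs and 58.8 to 89.8 in EpiLCs and missed the threshold (adjusted p = 0.085), and Idi1, Fdft1 and Sqle overlapped between the groups. Without overlap, 5 of 8 genes were higher in 2D EpiSCs, where 45.5% of genes were. Lss passed without ESC-derived replicate 3 (adjusted p = 0.041) or embryo-derived replicate 1 (adjusted p = 0.049), which enter the spread of the shared fit, with only the compared groups fitted (adjusted p = 0.021) and with a replicate block (adjusted p = 0.032). The endoderm markers summed to 46.0 to 63.4 TPM in 2D EpiSCs against 1.32 to 1.89 in EpiLCs and the 4 nascent mesoderm markers to 82.5 to 93.1 against 4.32 to 7.85, and their part in these differences was not tested.

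ESC-derived 3D EpiSCs share the ESC origin of 2D EpiSCs but differ from them in medium as well as dimension. Against 2D EpiSCs, they did not pass for any member. By limma 0 of 8 passed, 1 had an unadjusted p below 0.05 (Srebf2, 168 to 178 TPM against 184 to 232), and 0 passed with an intensity trend in the variance or under any other setting run. Over all genes 9.56% were higher and 35.9% lower, and the median was -0.16 for the members and -0.21 for all genes. Rescaling turned 1103 higher and 4148 lower into 2507 and 2670, with a member median of 0.06. Without ESC-derived replicate 3 the member median was 0.07, and without replicate 1 or 2 of that group it was -0.25, while 0 members passed each time. Hmgcs1 measured 914, 908 and 507 TPM against 965, 976 and 1072 (log2 fold change -0.42, SE 0.27, adjusted p = 0.23). All ESC-derived libraries lay below all 2D EpiSC libraries for 3 of 8 genes (Hmgcs1, Lss and Srebf2), where 42.8% of genes did so.

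Embryo-derived 3D EpiSCs were lower than 2D EpiSCs for 4 of 8 genes and higher for none, where 22.9% of genes were lower and 9.83% higher. The member median was -0.43 and that of all genes -0.08. Hmgcs1 measured 650, 344 and 339 TPM (log2 fold change -1.24, SE 0.27, adjusted p = 0.0052), and it alone fell by more than 1 on the log2 scale, where 7.75% of genes did. Without embryo-derived replicate 1, 3 members fell by more than 1, and with the close replicate pairs averaged 0 did. Fdft1 measured 139, 90.1 and 88.1 TPM against 190, 194 and 193 (-0.89, SE 0.23, adjusted p = 0.013). Lss measured 89.5, 54.1 and 52.1 TPM against 113, 110 and 112 (-0.81, SE 0.25, adjusted p = 0.026), and Srebf2 157, 139 and 142 TPM against 196, 184 and 232 (-0.47, SE 0.11, adjusted p = 0.0055). For 6 of 8 genes every embryo-derived library lay below every 2D EpiSC library, where 37.3% of genes did so, and Idi1 and Dhcr7 overlapped. With the close replicate pairs averaged, 0 of 8 passed (Hmgcs1 log2 fold change -1.11, adjusted p = 0.068). Without embryo-derived replicate 2 or replicate 3 the count was 2, since Fdft1 and Lss no longer passed, without any 1 of the 2D EpiSC replicates Lss did not pass (adjusted p = 0.063 to 0.071), and without ESC-derived replicate 3 or with only the compared groups fitted the count was 6, with Sqle and Cyp51 added. Over all genes, rescaling turned 1134 higher and 2641 lower into 1715 and 2213, and 3 members were lower.

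Between the 3D cultures, 1 of 8 genes passed, where 6.55% of genes were higher in ESC-derived than in embryo-derived cells and 14.6% lower. Fdft1 measured 224, 224 and 120 TPM in ESC-derived and 139, 90.1 and 88.1 TPM in embryo-derived 3D EpiSCs (log2 fold change 0.81, SE 0.23, adjusted p = 0.032), and the libraries overlapped. Hmgcs1 had a log2 fold change of like size (0.82) but missed the threshold (adjusted p = 0.054). The count of passing members was 0 with the close pairs averaged (Fdft1 adjusted p = 0.38). It was also 0 without ESC-derived replicate 1 or 2 or embryo-derived replicate 2 or 3. Without embryo-derived replicate 1 it was 2. Without ESC-derived replicate 3, the library that stood apart, it was 5, with Hmgcs1 (adjusted p = 0.0068), Fdft1, Sqle, Lss and Cyp51 higher. The member median was 0.32 against -0.12 for all genes, and rescaling turned 756 higher and 1680 lower into 1101 and 943, with 3 members higher (Hmgcs1, Fdft1 and Srebf2).

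The contrasts of both kinds of 3D EpiSCs with EpiLCs share the EpiLC libraries, so each is given on its own. In ESC-derived 3D EpiSCs 3 of 8 were higher and 0 lower, where 22.6% of genes were higher and 22.8% lower. Dhcr7 was at 120, 120 and 111 TPM (log2 fold change 0.93, SE 0.17, adjusted p = 0.0011), Cyp51 at 188, 187 and 109 TPM (0.79, SE 0.18, adjusted p = 0.0045) and Srebf2 at 171, 168 and 178 TPM (0.35, SE 0.11, adjusted p = 0.019). Srebf2 did not pass without EpiLC replicate 3 (adjusted p = 0.068), with the close pairs averaged (adjusted p = 0.083) or with only the compared groups fitted (adjusted p = 0.055), and Hmgcs1 passed as higher without ESC-derived replicate 3 (adjusted p = 0.026). In embryo-derived 3D EpiSCs 2 were higher, where 33.7% of genes were, and 2 lower, where 22.3% were. Dhcr7 was at 133, 96.9 and 94.2 TPM (0.80, SE 0.17, adjusted p = 0.0020) and Cyp51 at 142, 144 and 147 TPM (0.68, SE 0.18, adjusted p = 0.0082). The lower genes were Fdft1 (-0.84, SE 0.23, adjusted p = 0.0095) and Sqle, at 218, 173 and 177 TPM against 256, 248 and 274 (-0.46, SE 0.17, adjusted p = 0.032), and neither passed with the close pairs averaged. Sqle also did not pass without embryo-derived replicate 2 or 3 or any 1 EpiLC replicate (adjusted p = 0.054 to 0.11), and without embryo-derived replicate 1 Hmgcs1 passed as lower (adjusted p = 0.045). Rescaling turned 3888 higher and 2570 lower over all genes into 3181 and 3274 for the embryo-derived cells, with 2 members higher and 2 lower as before.

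**Figure D5:**
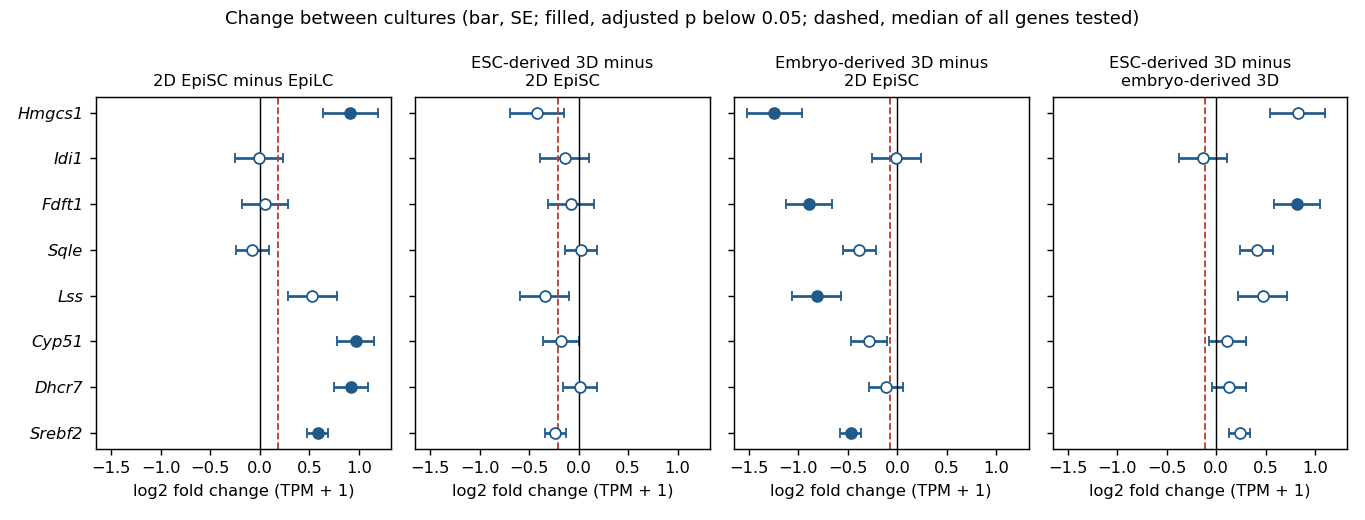
Log2 fold change of TPM + 1 (x axes) for each gene (y axis) between cultures, with SE bars from the limma fit of 12 libraries; filled points have an adjusted p below 0.05 and the dashed red line is the median of all genes tested. Filled points number 4 for 2D EpiSC minus EpiLC, 0 and 4 for the ESC-derived and embryo-derived 3D cultures minus 2D EpiSC, and 1 between the 3D cultures.

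The order of the culture means was the same for Hmgcs1, Fdft1 and Lss, with 2D EpiSCs highest and embryo-derived 3D EpiSCs lowest, and for Cyp51, Dhcr7 and Srebf2, with 2D EpiSCs highest and EpiLCs lowest. Idi1 had group means of 118 to 130 TPM and overlapping libraries in all 6 comparisons. The ratio of the highest to the lowest group mean was 2.26 for Hmgcs1 in culture and 1.65 in the embryo, while for Idi1 it was 3.07 in the embryo.

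Other sterol genes of the lists gave context in culture. Against EpiLCs, 39.9% of all genes were higher in 2D EpiSCs and 18.7% lower. Of 8 uptake and handling genes 7 were higher, or 4 after rescaling, led by Vldlr at 13.5 against 1.85 TPM (log2 fold change 2.36, adjusted p = 3.20e-05). Of 12 other synthesis enzymes 4 were higher, or 2 after rescaling, which did not exceed the share over all genes. Pmvk, a mevalonate pathway kinase, led them at 162 against 97.5 TPM (0.73, adjusted p = 0.0065). Insig1 was lower in 2D EpiSCs, at 51.1 against 101 TPM (-0.96, adjusted p = 0.033). In embryo-derived 3D against 2D EpiSCs 5 of the 12 enzymes were lower and 0 higher, or 3 lower after rescaling, where 22.9% of all genes were lower and 9.83% higher. Pmvk led them at 76.1 TPM (adjusted p = 0.0013). Of the 8 uptake and handling genes 4 were lower and 1 higher, or 3 and 1 after rescaling. Stard4, which carries cholesterol between membranes, was 50.8 against 101 TPM (adjusted p = 0.0015), while Vldlr was higher, at 27.2 against 13.5 TPM. Abcg1, a sterol exporter, was lower in the 3D cultures than in 2D EpiSCs, at 6.36 TPM in ESC-derived (adjusted p = 0.0087) and 3.53 TPM in embryo-derived cells (adjusted p = 0.00086) against 14.4 TPM. Between the 3D cultures, 6 of the 12 other enzymes were higher in ESC-derived cells and 0 lower, and likewise 6 after rescaling, where 6.55% of all genes were higher and 14.6% lower. Mvd, which makes IPP, the substrate of Idi1, was 149 against 64.3 TPM (1.16, adjusted p = 0.019), and Soat1, which esterifies cholesterol, was lower at 42.5 against 102 TPM (-1.28, adjusted p = 0.00029). Of the 8 uptake and handling genes 2 were higher in ESC-derived cells and 1 lower. The lower gene was Vldlr, at 15.3 against 27.2 TPM (-0.90, adjusted p = 0.046, or 0.062 after rescaling). In ESC-derived 3D against 2D EpiSCs, 1 of the 12 enzymes was lower and 0 higher, or 0 and 1 after rescaling, where 35.9% of all genes were lower and 9.56% higher. Scd1 was 117 against 201 TPM (-0.78, adjusted p = 0.0014). The X-linked Nsdhl was at 37.8 to 49.0 TPM in EpiLCs and at 122 to 137 TPM in 2D EpiSCs.

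Likeness between genes was described by Pearson's r over libraries, which share group and kit, so no p is given. Over the 15 embryo libraries all 28 pairs among the 8 genes were positive, from 0.16 (Hmgcs1 and Lss) to 0.91 (Idi1 and Fdft1), with a median of 0.73. Over the 12 culture libraries 25 of 28 were positive, from -0.07 (Sqle and Dhcr7) to 0.93 (Fdft1 and Sqle), with a median of 0.44. Against the mean of the 8 standardised profiles, the most alike of 11533 other genes in culture included Klhl25 (0.94), Sc5d (0.94), Hyal2 (0.93), Sdhd (0.91), Fasn (0.91), Aacs (0.90), Arf1 (0.90), Btd (0.90) and P4hb (0.90). Sc5d is the desaturase that makes the substrate of Dhcr7, Fasn is fatty acid synthase and Aacs activates acetoacetate for lipid synthesis. Of the 12 other synthesis enzymes 7 were among the top 100. In the embryo the most alike of 11872 were Duxbl1 (0.96), Enpp3 (0.95), Zbtb32 (0.95), Hmox1 (0.95), Ptger3 (0.94), Ccdc6 (0.94), Scd1 (0.94), Gnl2 (0.93), Per1 (0.93) and Kdm4c (0.93). Of these only Scd1, a fatty acid desaturase, is on a list used here, and 0 of the 12 other synthesis enzymes were among the top 100.

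The members lie at mm10 chr13:119690379-119708260 (Hmgcs1, plus strand), chr13:8885501-8892451 (Idi1, plus), chr14:63145150-63179578 (Fdft1, minus), chr15:59315077-59331192 (Sqle, plus), chr10:76531588-76557138 (Lss, plus), chr5:4081145-4104746 (Cyp51, minus), chr7:143823145-143848410 (Dhcr7, plus) and chr15:82147181-82205379 (Srebf2, plus). Of these, Fdft1 overlaps Ctsb (at most 58.4 TPM) and Cyp51 overlaps Akap9 (at most 60 TPM), both on the opposite strand, and Srebf2 overlaps Gm49502 (at most 8.41 TPM) and Mir33 (at most 2.26 TPM) on the same strand. Reads shared with these genes could add to the values.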

How the data were processed

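RNA levels were taken from 27 RNA-seq libraries, 12 from cultures and 15 from embryos. The authors trimmed reads with cutadapt (version 2.4), aligned them to mm10 with STAR and deposited TPM values per gene made with StringTie. The table held 54446 genes, with 12 identifiers on several lines (summed) and 56 lines with empty cells (read as 0). TPM sums to 1000000 in every library, so depth and counting error are unknown.

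Here TPM was tested as log2(TPM + 1) with limma (version 3.58.1, R 4.3.3), in a fit of 12 culture libraries and another of 15 embryo libraries, with group as the only term. Autosomal protein-coding genes above 2 TPM in at least 3 libraries were tested, 11541 and 11880 genes. Fold changes are on the log2(TPM + 1) scale, which understates changes of low genes. A gene passed at a Benjamini-Hochberg adjusted p below 0.05 over all genes tested. The scripts were tested on simulated data.

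The labels do not say whether replicates came from separate cultures or litters, so p-values measure only the spread between these libraries, which may be technical. Named were all 8 members, genes from the 10 most alike, and listed genes drawn from the 2 of each list with the largest passing change per comparison, to which other listed genes (such as Fdps, Insig2, Scap and Nsdhl) were added after their values were seen. The members and lists were chosen with earlier results of these data known. Some genes that the lists or the likeness ranking would name are not reported here.

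Alternatives were a smaller pseudocount (0.1), the fit with low genes kept, the fit with sex-linked and noncoding genes kept, rescaling by median-of-ratios factors, fitting only the compared groups, a replicate block, an intensity trend, averaging of close replicates (median absolute log2 difference below 0.1) and leaving out each library. Bisulfite and single-cell data were not used here.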

Additional observations from a re-analysis of the deposited data

Results flagged for a closer look

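Fdft1, squalene synthase, was flagged as the only member that passed when the ESC-derived and embryo-derived 3D cells were compared in their difference from 2D EpiSCs. The log2 difference from 2D EpiSCs was -0.08 in ESC-derived and -0.89 in embryo-derived 3D EpiSCs, and these effects differed by 0.81 (limma, adjusted p = 0.032, 3 libraries per group). The test of the difference is the direct contrast of the 3D cultures, since both share the 2D EpiSC libraries. Over 20 alternatives the difference ranged from 0.56 to 1.11 and the adjusted p from 0.0011 to 0.38, and 13 passed. It did not pass when low genes were kept (adjusted p = 0.057), with only the compared groups fitted (adjusted p = 0.12) or with close replicates averaged (adjusted p = 0.38), nor without ESC-derived replicate 1 (0.66, adjusted p = 0.12) or 2 (0.66, adjusted p = 0.13) or embryo-derived replicate 2 (0.72, adjusted p = 0.11) or 3 (0.70, adjusted p = 0.12). The libraries of the 3D cultures overlapped. Fdft1 was not alone in this contrast. By limma, Hmgcs1 differed by 0.82 in the main fit and missed the threshold (adjusted p = 0.054). It passed after rescaling (adjusted p = 0.042) and with an intensity trend (adjusted p = 0.040). Of the 12 other synthesis enzymes tested, 6 were also higher in ESC-derived cells, where 6.55% of all genes were.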

How the results depend on the processing

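The rise of 8 genes at E4.5 and the fall of 6 at E5.5 had the same counts under all alternatives run, 8 to 8 and 6 to 6 when each library was left out. Of 1664 gene-level values under alternatives, 1595 kept their direction and side of the threshold or passed in neither setting, 37 no longer passed, 32 newly passed, and 0 reversed. Averaging close replicates gave 0 passing genes for embryo-derived 3D against 2D EpiSCs, 2 for embryo-derived 3D against EpiLCs and 0 between the 3D cultures. It could not be run in the embryo, where no pair was that close. Between the 3D cultures the count was 0 without the filter, 3 after rescaling, 0 with only the compared groups fitted and 2 with an intensity trend. With only the compared groups fitted the count was 6 for embryo-derived 3D against 2D EpiSCs (Sqle and Cyp51 added), 2 for ESC-derived 3D against EpiLCs (Srebf2 lost), 5 for 2D EpiSCs against EpiLCs (Lss added) and 3 at E7.5 (Fdft1 added). At E6.5 against E5.5 it was 1 after rescaling and 1 with only the compared groups fitted, and at E7.5 against E6.5 it was 6 after rescaling. The causes were not tested. Leaving out 1 library at a time gave 0 to 0 for ESC-derived 3D against 2D EpiSCs, 2 to 6 for embryo-derived 3D against 2D EpiSCs, 2 to 4 for ESC-derived 3D against EpiLCs, 3 to 5 for embryo-derived 3D against EpiLCs, 3 to 5 for 2D EpiSCs against EpiLCs, 0 to 5 between the 3D cultures, 1 to 3 at E6.5, where Sqle passed without E6.5 replicate 3, and 2 to 3 at E7.5, where Sqle passed without E6.5 replicate 1 and Fdft1 without E4.5 replicate 3 or E5.5 replicate 1.

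Replicate numbers did not pair the samples. Deviations of same-numbered libraries correlated at a mean r of -0.03 in culture (18 pairs) and -0.02 in the embryo (30 pairs). When replicate number entered as a block, the member counts were 0, 4, 3, 4, 5 and 1 for the culture comparisons in the order ESC-derived 3D against 2D EpiSCs, embryo-derived 3D against 2D EpiSCs, both against EpiLCs, 2D EpiSCs against EpiLCs and ESC-derived against embryo-derived 3D. Lss was the gene added by the block for 2D EpiSCs against EpiLCs. Under the block the embryo counts were 8, 6, 2 and 2.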
